A study of Mus musculus with 6 samples.

Results

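Cytosolic ribosomal protein genes encode the protein part of the ribosome that translates nuclear messenger RNA. They were taken as every gene whose only annotated symbol is Rpl or Rps with a number (and at most a closing a, x or y), Rplp0, Rplp1, Rplp2 or Rpsa. This gave 42 of the 18193 genes with 1 symbol on the Affymetrix Mouse430_2 array, measured by 94 of its 45037 non-control probe sets. Where a gene had several probe sets, the brightest on average across the arrays stood for it. A further 27 ribosomal protein genes, Rplp1 among them, met the pattern only on probe sets annotated to several genes and are not analysed here.

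The arrays measured 3 CD4 T cell populations sorted from spleens and mesenteric lymph nodes of BALB/c mice lacking Rag1, which make no T or B cells of their own. All hosts had received wild-type natural regulatory T cells (nTreg) and 500000 wild-type regulatory T cells induced in culture (iTreg), and cells were recovered 125 days later and pooled from 14 mice. nTreg cells were positive for EGFP, a reporter of Foxp3, the master transcription factor of regulatory T cells, and negative for the allelic surface mark Thy1.1. iTreg cells carried both EGFP and Thy1.1, and ex-iTreg cells carried Thy1.1 without EGFP. Each population has 2 arrays, 1 for each replicate pool. Whether both pools of a population came from separate mice is not in the labels, so p-values reflect only pool-to-pool spread, which may be technical.

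Ribosomes are built from a small subunit, which binds the messenger RNA and reads the codons, and a large subunit, which joins the amino acids. Most of their proteins occur once per ribosome, and their messenger RNAs are among the most abundant of a cell. These messenger RNAs begin with a run of C and T bases, the terminal oligopyrimidine or TOP motif, through which growth signals acting on the kinase mTOR control how much of each is translated. In T cells, production of ribosomes rises with activation and growth.

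Values are log2 expression as deposited, n = 2 arrays per group, and differences are given with the standard error (SE) from limma. Array medians lay between 5.47 and 5.49. Probe sets that exceeded 5.48, the overall median, on 2 or more arrays were tested. Of the 42 genes 41 were tested, each of them above that level in all 6 arrays. The remaining one, Rps16, lay between 3.42 and 3.73 and was below that level in all 6. Of the T cell markers fixed for this work, 8 of 10 were on the array under their own symbol and all 8 were above the filter level, Cd3d at 13.06 and Cd4 at 9.04. The only Foxp3 probe set read between 3.99 and 4.29 and could not check the reporter labels.

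Among the 42 genes, 33 had a mean level above 13, from 13.22 (Rpl27) to 14.38 (Rps29), which places them in the top of the array's range: array maxima were 14.48 to 14.54. The dimmer 9, from Rps16 at 3.58 to Rpl37 at 10.82, included Rpl39 at 7.44, Rpl14 at 7.51, Rpl27a at 8.23, Rps6 at 8.36, Rpl12 at 8.95, Rps27 at 9.17 and Rps25 at 10.04. Levels of different probe sets are not per length and do not rank genes by the amount of their transcripts. Where members are split or ordered by level below, level means the brightness of the probe set. The SD between the 2 arrays of a group was at most 0.169 for any tested member.

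**Figure D1:**
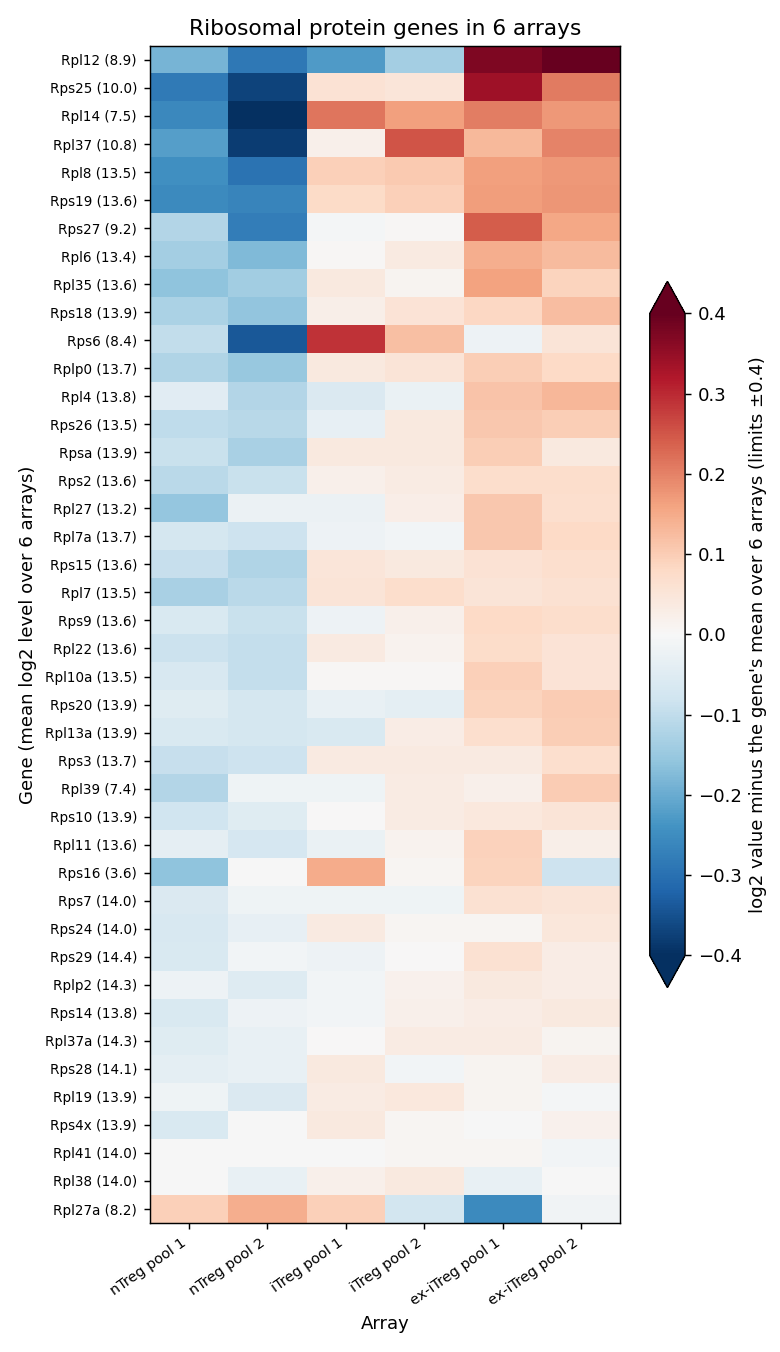
Colour gives, for each of the 42 ribosomal protein genes (rows, with the mean log2 level in brackets) and each array (columns), the log2 value minus that gene's mean over 6 arrays. The nTreg columns are mostly blue and the ex-iTreg columns mostly red. Rpl27a shows the opposite, and Rps16 was below the filter level and not tested.

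Natural regulatory cells were first set against induced cells that had lost the reporter. Ribosomal protein genes were mostly a little higher in ex-iTreg than in nTreg arrays. Of 41 tested genes, 13 rose and 0 fell (limma adjusted p under 0.05), where 18.4% of the 11019 tested genes rose and 19% fell (37.4% in either direction). The median difference was 0.153 on the log2 scale, against 0.025 over all tested genes. In 37 genes both ex-iTreg arrays lay above both nTreg arrays, an arrangement found in 38.1% of all tested genes. In 1 gene, Rpl27a, both lay below (33% of all tested genes).

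The largest difference was in Rpl12, a large-subunit protein that sits at the base of the stalk where elongation factors bind. It read 8.76 and 8.66 in nTreg, 8.72 and 8.81 in iTreg, and 9.32 and 9.41 in ex-iTreg arrays. Its nTreg and iTreg values overlapped, and both ex-iTreg arrays stood apart. The difference between ex-iTreg and nTreg was 0.66 ± 0.07, or 1.58-fold (adjusted p = 0.000949, limma).

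Rps25, a small-subunit protein needed by some viral internal ribosome entry sites, read 9.76 and 9.67 in nTreg, 10.10 and 10.09 in iTreg, and 10.38 and 10.25 in ex-iTreg arrays. The 3 populations did not overlap, and ex-iTreg exceeded nTreg by 0.60 ± 0.08 (adjusted p = 0.00143, limma). Rpl14, a large-subunit protein, read 7.25 and 7.01 in nTreg arrays and between 7.67 and 7.72 in the other 4. Its 2 induced-origin populations could not be separated, and ex-iTreg exceeded nTreg by 0.56 ± 0.09 (adjusted p = 0.00437, limma).

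Among the genes at the top of the range, Rpl8 and Rps19 differed most. Rpl8, a protein near the catalytic centre of the large subunit, read 13.22 and 13.17 in nTreg, 13.56 and 13.57 in iTreg, and 13.63 and 13.64 in ex-iTreg arrays. The nTreg arrays were the lowest pair, and ex-iTreg exceeded them by 0.44 ± 0.06 (adjusted p = 0.00241, limma). Rps19, the small-subunit protein whose loss of 1 copy causes Diamond-Blackfan anaemia, read 13.33 and 13.32 in nTreg, 13.66 and 13.68 in iTreg, and 13.75 and 13.76 in ex-iTreg arrays. Its groups did not overlap either, and the difference was 0.43 ± 0.06 (adjusted p = 0.00239, limma).

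The other called genes of the large subunit were Rpl37 (0.46 ± 0.10), Rpl6 (0.29 ± 0.06), Rpl35 (0.28 ± 0.06), Rplp0 (0.22 ± 0.06) and Rpl4 (0.21 ± 0.06). Rplp0 is the scaffold of the stalk that recruits elongation factors, and Rpl35 lies at the exit of the peptide tunnel. Those of the small subunit were Rps27 (0.39 ± 0.08), Rps18 (0.25 ± 0.06) and Rps26 (0.21 ± 0.06), which lies where the messenger RNA leaves the ribosome. By subunit, 5 of 19 small-subunit genes and 8 of 22 large-subunit genes rose (26.3% and 36.4%, against 18.4% of all tested genes). Their median differences were 0.153 and 0.161. Of 10 genes mutated in Diamond-Blackfan anaemia, 3 rose (30%, against 18.4%). All 10 had both ex-iTreg arrays above both nTreg arrays, as had 37 of the 41 members and 38.1% of all tested genes.

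Several members barely differed. Rpl38, a large-subunit protein that favours translation of Hox messenger RNAs in the embryo, read 14.01 and 13.98 in nTreg and 13.98 and 14.01 in ex-iTreg arrays. The groups overlapped, and the difference was 0.00 ± 0.06. Rps4x, encoded on the X chromosome, differed by 0.03 ± 0.06 and Rpl19, a large-subunit protein, by 0.04 ± 0.06. Rpl41, the smallest protein of the ribosome, differed by 0.00 ± 0.06 on the probe set used. Rplp2, a mobile protein of the stalk, differed by 0.07 ± 0.06 and Rpl11, which with the 5S RNA can inhibit Mdm2 and so stabilise p53, by 0.11 ± 0.06.

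Rpsa, also known as the laminin receptor, differed by 0.18 ± 0.06 (adjusted p = 0.071, limma) although both ex-iTreg arrays, at 13.98 and 13.92, lay above the nTreg arrays at 13.79 and 13.75. Rpl22, needed for the development of alpha-beta T cells, differed by 0.15 ± 0.06 (adjusted p = 0.0935, limma), and Rpl13a, which is released from the ribosome in interferon-treated macrophages, by 0.15 ± 0.07. Rpl39, another gene of the X chromosome, differed by 0.13 ± 0.07. Rps6, the small-subunit protein phosphorylated downstream of mTOR, differed by 0.24 ± 0.10 (adjusted p = 0.123, limma), and its groups did not overlap. Rpl27a ran the other way at -0.25 ± 0.10 (adjusted p = 0.103, limma).

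**Figure D2:**
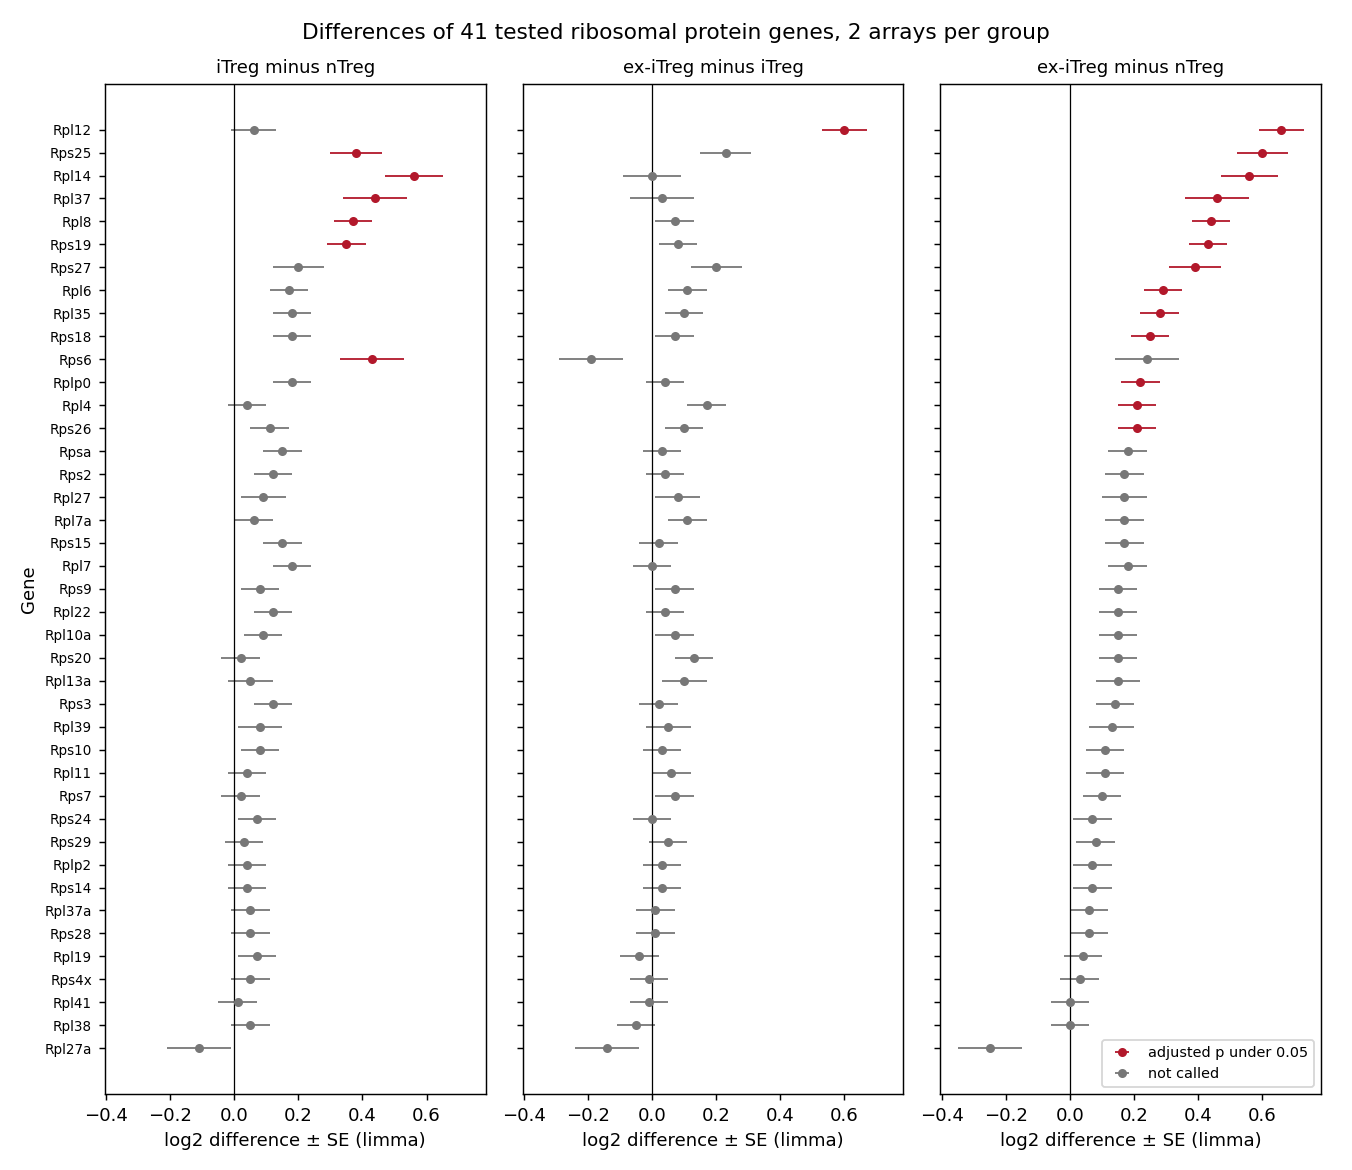
Points give the log2 difference of each of 41 tested genes in the 3 comparisons and bars its SE from limma (2 arrays per group); red marks an adjusted p under 0.05. Called genes number 6, 1 and 13 from left to right, all with positive differences.

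The count depended on how the spread was modelled and on the normalization. limma with a spread that varies with level, which gives bright probe sets a smaller expected spread, called 32 genes higher and 1 lower, Rpl27a (adjusted p = 0.0399), where 22.4% of all genes rose and 22.1% fell. Averaging all probe sets of a gene gave 23 higher (background 20.5%), and testing without a filter on low values gave 8 of 42 (background 8.75%). Quantile normalization called 9 of 41 higher, a share near its background of 21.2%, with a median of 0.087 and 34 positive differences. Centring arrays on their median gave 11 (background 17.2%), as did cyclic loess, which removes level-dependent shifts between arrays (background 17.6%). Leaving out 1 array lowered the 13 to 8 without nTreg pool 2, to 5 without ex-iTreg pool 1 and to 6 without ex-iTreg pool 2. The background of risen genes was then 13.4%, 10.3% and 10.5%, so the last 2 counts of 41 were close to it. Rpl12, Rps25, Rpl14, Rpl8 and Rps19 passed in each of the 16 alternatives; Rpl4 and Rps26 (adjusted p = 0.0444 and 0.0429) passed in 4 of 16 and Rplp0 (adjusted p = 0.0313) in 6 of 16. With 1 array left out, the adjusted p of Rpl4 lay between 0.0628 and 0.17, that of Rps26 between 0.0613 and 0.169 and that of Rplp0 between 0.0552 and 0.14. Rpl37 was lost without nTreg pool 2 (0.059), ex-iTreg pool 1 (0.0519) or ex-iTreg pool 2 (0.0781), and Rps18 without the same arrays (0.0711, 0.081 and 0.118). Rpl35 was lost without nTreg pool 1 (0.0504), ex-iTreg pool 1 (0.098) or ex-iTreg pool 2 (0.0525), Rpl6 without ex-iTreg pool 1 (0.0734) or pool 2 (0.0655), and Rps27 without ex-iTreg pool 1 (0.0678).

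The second comparison was of induced cells that kept the reporter with natural ones. In iTreg relative to nTreg arrays 6 genes rose and 0 fell, a share of 14.6% where 16.4% of all tested genes rose and 12.7% fell (29.1% in either direction), so the called share was near the background. The differences themselves were mostly positive: 40 of 41 lay above 0, with a median of 0.082 against 0.036 over all tested genes. Both iTreg arrays lay above both nTreg arrays in 37 genes (39.2% of all tested genes) and below them in 0 (28.8%).

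The genes that rose were Rpl14 (0.56 ± 0.09), Rpl37 (0.44 ± 0.10), Rps6 (0.43 ± 0.10), Rps25 (0.38 ± 0.08), Rpl8 (0.37 ± 0.06) and Rps19 (0.35 ± 0.06), with adjusted p from 0.00669 to 0.0244 (limma). Rps6 read 8.26 and 8.02 in nTreg, 8.65 and 8.48 in iTreg, and 8.34 and 8.41 in ex-iTreg arrays. Its iTreg arrays were the highest, and its nTreg arrays the lowest. Rpl37, a small zinc-binding protein of the large subunit, read 10.60 and 10.44 in nTreg and 10.84 and 11.07 in iTreg arrays, which did not overlap.

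Members fixed by name that were not called differed by 0.18 ± 0.06 (Rplp0), 0.15 ± 0.06 (Rpsa), 0.12 ± 0.06 (Rpl22), 0.08 ± 0.07 (Rpl39), 0.05 ± 0.07 (Rpl13a), 0.05 ± 0.06 (Rps4x and Rpl38) and 0.04 ± 0.06 (Rpl11 and Rplp2). The count of 6 became 22 with an intensity-dependent spread (background 21.5%) and 11 with averaged probe sets (background 18.3%). Fewer passed without nTreg pool 2 or without iTreg pool 2, as among all tested genes. The members' medians were then 0.094 and 0.071. Rps25 did not pass with nTreg pool 2 left out (adjusted p = 0.0539, limma) or with either iTreg array left out (0.0624 and 0.0626), nor did Rpl37 without nTreg pool 2 (0.0856) or iTreg pool 2 (0.0993), nor Rps6 without nTreg pool 2 (0.0837) or iTreg pool 1 (0.113), nor Rps19 without iTreg pool 2 (0.0517).

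The third comparison set cells that had lost the reporter against those of the same origin that kept it. In ex-iTreg relative to iTreg arrays only Rpl12 rose among the 41 genes, by 0.60 ± 0.07, or 1.52-fold (adjusted p = 0.00175, limma), and 0 fell. This share of 2.44% stood below the background, where 15.6% of all tested genes rose and 21% fell (36.6% in either direction). The median difference was 0.043, against -0.023 over all tested genes, and 33 of 41 differences were positive. Both ex-iTreg arrays lay above both iTreg arrays in 27 genes (32.9% of all tested genes) and below them in 3 (39.9%).

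After Rpl12, the largest positive differences were Rps25 at 0.23 ± 0.08 (adjusted p = 0.0571, limma), Rps27 at 0.20 ± 0.08 and Rpl4, a large-subunit protein of the peptide tunnel, at 0.17 ± 0.06 (adjusted p = 0.0847, limma). The most negative were Rps6 at -0.19 ± 0.10 and Rpl27a at -0.14 ± 0.10. Members fixed by name lay between -0.05 ± 0.06 (Rpl38) and 0.10 ± 0.07 (Rpl13a) apart from Rps6. With an intensity-dependent spread 12 genes rose (background 19.2%). Probe sets of the _x_at and _s_at kinds can bind transcripts of several genes, and without them 4 of 36 rose (background 16%). Cyclic loess, which removes level-dependent shifts between arrays, reduced the median to 0.008, with 22 of 41 differences positive and 2 genes called (background 16.3%).

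Set side by side, the group means of 33 of 41 tested members ran from nTreg through iTreg to ex-iTreg, an order found in 20.9% of all tested genes. With cyclic loess 22 did (18.7% of all tested genes), and with quantile normalization 26 (21.8%). In 39 of 41 the nTreg mean was the lowest. The exceptions were Rpl27a, which ran the opposite way, and Rpl38, whose ex-iTreg mean of 13.99 was lowest and nTreg mean of 14.00 next; the latter do not differ beyond their spread. The 3 comparisons share arrays, so these counts are not independent of those above.

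Differences between nTreg and the other populations varied with the members' level. Across the 41 members, level and the ex-iTreg minus nTreg difference correlated with a Pearson coefficient of -0.40 and a Spearman coefficient of -0.65 (a description across genes of the same 6 arrays, not independent points). The coefficients were -0.42 and -0.58 in iTreg minus nTreg and -0.11 and -0.26 in ex-iTreg minus iTreg, where bright and dimmer members had medians of 0.043 and 0.042. The 33 bright members had a median difference of 0.153, with 8 called higher, and the 8 tested dimmer members one of 0.429, with 5 called. Over the 67 other tested genes with a mean above 13, the median was -0.073, and 5.97% rose and 25.4% fell. In the iTreg minus nTreg comparison, 1.49% of these 67 genes rose and 16.4% fell, against 2 risen and 0 fallen among the bright 33; in ex-iTreg minus iTreg 5.97% rose and 14.9% fell, against 0 and 0.

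**Figure D3:**
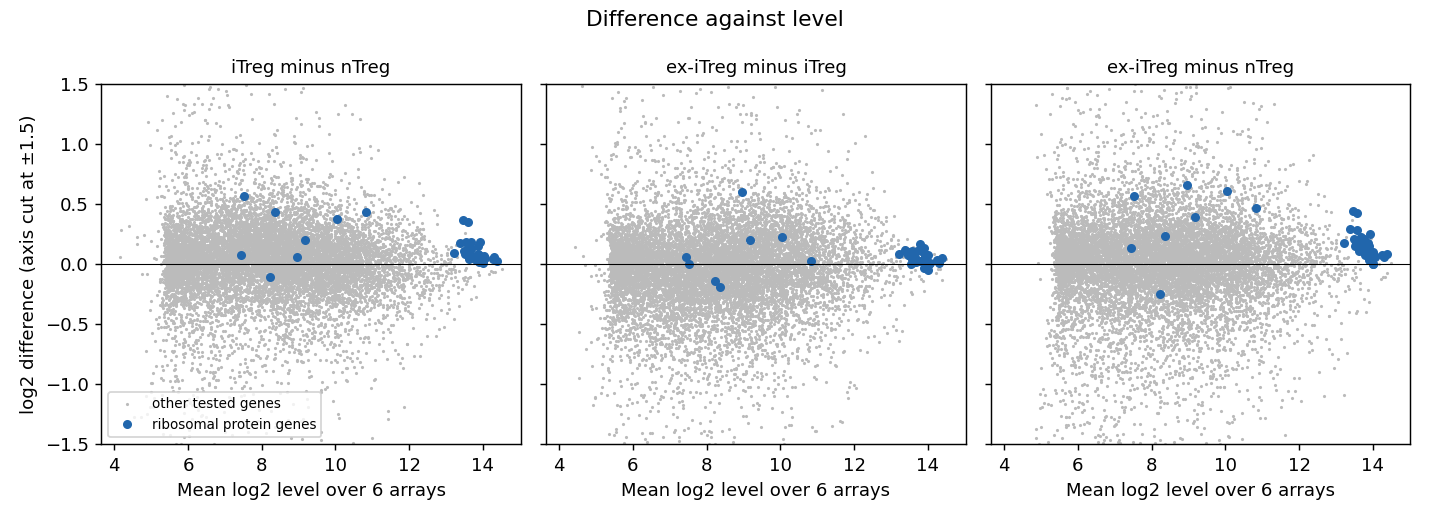
Each point is a tested gene, with its mean log2 level on the x axis and its log2 difference on the y axis (cut at 1.5 in each direction); blue points are the 41 ribosomal protein genes. In ex-iTreg minus nTreg the 33 blue points above a level of 13 lie near or above 0, and the 4 largest differences belong to dimmer members.

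Genes with several probe sets showed the same spread of sizes. Of the 94 probe sets 86 were tested, and in ex-iTreg minus nTreg 33 of these rose, 0 fell and 82 had a positive difference. All tested probe sets shared their sign in 17 of 19 genes with more than 1, and in 0 genes did probe sets pass in opposite directions. For Rps9, a small-subunit protein that helps keep decoding accurate, the bright probe set used (13.59) gave 0.15 ± 0.06 and was not called, while its others, at 9.05 and 7.64, gave 0.41 ± 0.08 and 0.48 ± 0.07 (adjusted p = 0.00682 and 0.00295, limma).

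Rpl41 gave 0.00 ± 0.06 at 14.01 and 0.05 ± 0.06 at 13.91, but 0.42 ± 0.08 at 9.35 and 0.54 ± 0.07 at 9.08 (adjusted p = 0.0078 and 0.00194 for the last 2, limma), so its result turns on the probe set. Rpl13a gave 0.15 ± 0.07 at 13.87, 0.28 ± 0.06 at 13.77, 0.23 ± 0.06 at 12.29 and 0.35 ± 0.07 at 11.54, the last 3 of which were called (adjusted p = 0.0145, 0.028 and 0.00764, limma). In Rpl35 all 5 tested probe sets lay between 13.28 and 13.58 and were called, from 0.28 to 0.44. Rpl22 was called on its probe set at 12.65 (0.22 ± 0.06, adjusted p = 0.0404, limma) and not on those at 13.57 and 8.52.

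In all, 17 tested probe sets of 11 genes lay at least 1 log2 unit below the bright probe set of their gene. Of these 12 gave a larger difference in ex-iTreg minus nTreg than the bright one, with medians of 0.28 and 0.14. In iTreg minus nTreg 10 of the 17 did (medians of 0.18 and 0.07), and in ex-iTreg minus iTreg 9 of the 17 did (0.08 and 0.03). The 3 below a level of 6, of Rps24 at 5.34 (-0.10 ± 0.26), Rps4x at 5.46 (0.02) and Rps20 at 5.86 (-0.02 ± 0.16), were near the filter level. Which transcripts each probe set binds was not tested.

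**Figure D4:**
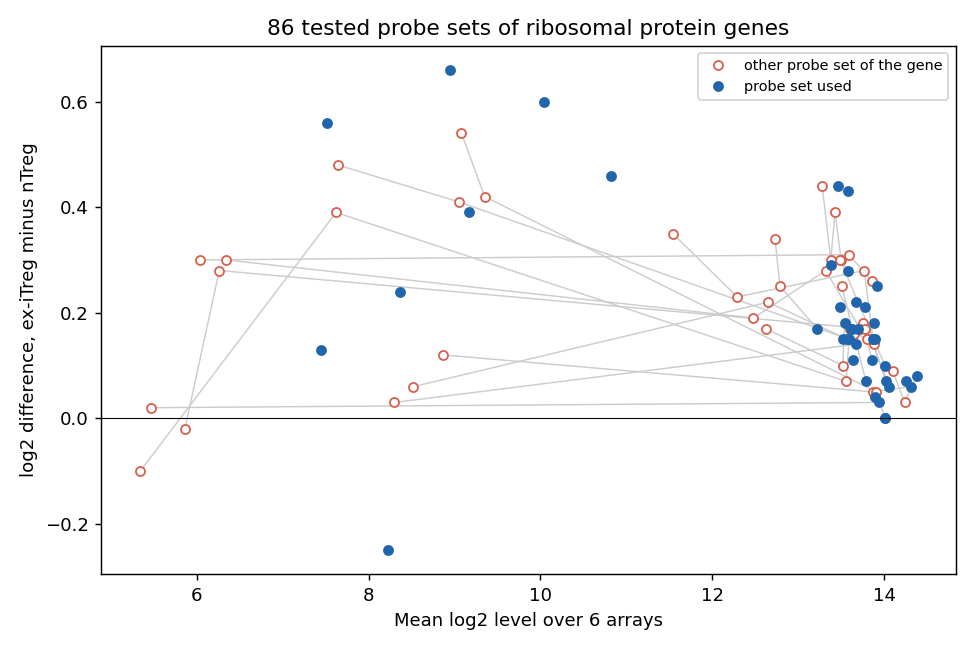
Each point is 1 of 86 tested probe sets, with mean log2 level on the x axis and the ex-iTreg minus nTreg difference on the y axis; grey lines join probe sets of a gene, and filled points are those used. Of the 17 open points at least 1 log2 unit dimmer than the filled point of their gene, 12 lie above it.

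RefSeq gives a promoter sequence, 250 bases before to 50 after the start of transcription (build GRCm38.p6), for 37 of the 42 members; where several starts are listed, the first was taken. A C followed by 4 pyrimidines (C or T) stood exactly at the annotated start in 8 of 37 members (21.6%) and in 2.17% of 17491 protein-coding genes. A C followed by 7 pyrimidines stood somewhere between 20 bases before and 50 after the start in 27 of 37 (73%), against 20.2%. Among members that rose in ex-iTreg relative to nTreg arrays 11 of 12 had such a run, and among those not called 16 of 24 (Rps16 was not tested). The starts of the 8 members are shown because the pyrimidine run is the shared feature of this gene family; each line has 15 bases on either side of the annotated start, with the run around it in capitals.
Rpl14, chr9:120571502-120571531, plus strand: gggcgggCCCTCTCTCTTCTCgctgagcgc
Rpl35, chr2:39005117-39005146, minus strand: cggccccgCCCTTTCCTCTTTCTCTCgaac
Rpl38, chr11:114668565-114668594, plus strand: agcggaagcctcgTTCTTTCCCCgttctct
Rplp2, chr7:141447636-141447665, plus strand: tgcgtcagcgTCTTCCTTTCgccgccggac
Rps10, chr17:27635230-27635259, minus strand: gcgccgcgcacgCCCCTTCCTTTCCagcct
Rps18, chr17:33955651-33955680, minus strand: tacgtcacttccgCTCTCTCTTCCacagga
Rps27, chr3:90213634-90213663, minus strand: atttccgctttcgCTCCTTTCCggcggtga
Rps6, chr4:86857353-86857382, minus strand: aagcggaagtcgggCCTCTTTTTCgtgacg

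These runs were 9 bases long in Rps27, 10 in Rps6, Rpl38 and Rplp2, 11 in Rps18, 13 in Rps10, 14 in Rpl14 and 18 in Rpl35. Of these 8 genes Rpl14, Rpl35, Rps18 and Rps27 rose in ex-iTreg relative to nTreg arrays, while Rps6, Rpl38, Rplp2 and Rps10 (0.11 ± 0.06) were not called. Members with and without a call thus carry this start.

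In the whole 300-base windows, on either strand, the core of the binding site of ETS factors, TTCCGG (reverse CCGGAA), was found in 22 of 37 members (59.5%) and 19.1% of protein-coding genes. The core bound by YY1, AAGATGG, was found in 6 (16.2%, against 6.37%), the TATA box TATAAA in 4 (10.8%, against 13.3%) and the E-box CACGTG, bound by Myc and Max, in 3 (8.11%, against 7.9%). The ETS core was present in 8 of 12 members that rose and 14 of 24 that were not called. As an example from each set, the 120 bases before and 15 after the start of Rps25, which rose by 0.60, and of Rpl41, which differed by 0.00 on the probe set used, each hold 1 copy, shown in capitals, beginning 73 and 56 bases before the start. A match of letters does not show that a factor binds.
Rps25, chr9:44407594-44407728, plus strand: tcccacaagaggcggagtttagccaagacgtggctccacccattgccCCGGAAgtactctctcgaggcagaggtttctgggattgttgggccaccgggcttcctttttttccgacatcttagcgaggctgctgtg
Rpl41, chr10:128549154-128549288, minus strand: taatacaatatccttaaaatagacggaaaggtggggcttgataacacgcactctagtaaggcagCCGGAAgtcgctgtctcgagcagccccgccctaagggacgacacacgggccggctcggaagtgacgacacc

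Close relatives outside the symbol rule were tested as well. Rpl22l1, the paralogue of Rpl22, read 12.60 and 12.52 in nTreg, 12.62 and 12.68 in iTreg, and 12.98 and 13.02 in ex-iTreg arrays. Its ex-iTreg arrays stood apart, exceeding nTreg by 0.44 ± 0.07 and iTreg by 0.35 ± 0.07 (adjusted p = 0.00309 and 0.00791, limma; the latter 0.0564 without ex-iTreg pool 2). Rps3a1, a small-subunit protein whose symbol ends in a number, exceeded nTreg by 0.22 ± 0.06 in ex-iTreg arrays (adjusted p = 0.0338, limma; between 0.0576 and 0.147 with any array left out), and Fau, a ubiquitin-like fusion that yields another small-subunit protein, differed by 0.06 ± 0.06. Rps27l, a paralogue of Rps27 induced by p53, differed by -0.11 ± 0.06 (adjusted p = 0.191, limma). Rpl7l1 exceeded nTreg by 0.30 ± 0.07 in iTreg arrays (adjusted p = 0.0217, limma; 0.0786 without nTreg pool 2, and 0.0969 and 0.0754 without the iTreg pools in turn). Rps4l was lower than nTreg in both other populations (-0.34 ± 0.07 and -0.31 ± 0.07; adjusted p = 0.0162 and 0.0174, limma), at levels between 5.42 and 5.81 that are close to the filter level. With nTreg pool 2 left out neither passed (0.0576 and 0.0615), nor did the first with an iTreg array left out (0.0809 and 0.0518) or the second with ex-iTreg pool 2 left out (0.108).

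Other TOP messenger RNAs encode elongation and initiation factors and a few RNA-binding proteins. In ex-iTreg minus nTreg 5 of 14 rose (35.7%, against 18.4% of all tested genes), 0 fell and the median was 0.137; without either ex-iTreg pool 3 rose. Those that rose were Hnrnpa1 (0.46 ± 0.07), Eef1b2 (0.37 ± 0.08), Eif3e (0.32 ± 0.06), Eef1d (0.31 ± 0.06) and Eif4b (0.30 ± 0.06), with adjusted p from 0.00321 to 0.0115 (limma). Eef1a1 and Tpt1, at means of 14.16 and 14.51, differed by 0.00 ± 0.07 and 0.01 ± 0.06. In iTreg minus nTreg Eef1d and Eef2, the translocation factor, rose (0.37 ± 0.06 and 0.34 ± 0.06), and Eef2 fell again in ex-iTreg minus iTreg (-0.21 ± 0.06, adjusted p = 0.0415, limma), where Hnrnpa1 rose (0.25 ± 0.07, adjusted p = 0.035). Eef2 did not pass in the first comparison without iTreg pool 2 (0.0649), nor Eif4b in its own without ex-iTreg pool 1 (0.079). In ex-iTreg minus iTreg 0 of the 14 passed when any iTreg or ex-iTreg array was left out.

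The factors that assemble ribosomes differed by more. Of 68 tested biogenesis genes 51 rose in ex-iTreg relative to nTreg arrays (75%, against 18.4% of all tested genes) and 0 fell, with a median of 0.408. Without ex-iTreg pool 1 the count was 32, and it lay between 32 and 55 over all 16 alternatives. Tsr1, an assembly factor of the small subunit, read 9.84 and 9.69 in nTreg, 9.95 and 9.97 in iTreg, and 10.55 and 10.56 in ex-iTreg arrays. Its populations did not overlap, and ex-iTreg exceeded nTreg by 0.79 ± 0.07 (adjusted p = 0.000409, limma). Gar1 and Dkc1, which act together in the pseudouridylation of ribosomal RNA, rose by 0.76 ± 0.07 and 0.72 ± 0.07, and Mdn1, a giant ATPase of large-subunit maturation, rose by 0.65 ± 0.06.

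In ex-iTreg minus iTreg 31 of the 68 biogenesis genes rose (45.6%, against 15.6%), and Tcof1, a nucleolar cofactor of RNA polymerase I, fell. Mdn1 rose by 0.82 ± 0.06, Rsl1d1 by 0.81 ± 0.07, Ftsj3 by 0.62 ± 0.07 and Wdr43 by 0.53 ± 0.06 (adjusted p at most 0.00153, limma). The count was 19 without either ex-iTreg pool, and Tcof1 did not pass without pool 1 (adjusted p = 0.0528). In iTreg minus nTreg 23 rose (33.8%, against 16.4%) and 3 fell, Ncl, Riok1 and Rsl1d1. Nop2 rose by 0.63 ± 0.07, Nhp2 by 0.54 ± 0.07, Utp4 by 0.51 ± 0.07 and Nob1 by 0.47 ± 0.07. Fewer rose and fewer fell with any array left out, as among all tested genes. Without iTreg pool 2 the share that rose was near that of all tested genes. The medians with an array left out lay between 0.15 and 0.209, against 0.188 with all arrays.

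Some long noncoding RNAs host small nucleolar RNAs, the guides of ribosomal RNA modification. Of 9 such RNAs 8 rose in ex-iTreg relative to nTreg arrays (88.9%, against 18.4% of all tested genes). The other 1, Snhg5, fell (11.1%, against 19%). Snhg1 read 11.20 in both nTreg, 11.65 and 11.71 in iTreg, and 11.93 and 12.05 in ex-iTreg arrays. The populations did not overlap, and ex-iTreg exceeded nTreg by 0.79 ± 0.07 (adjusted p = 0.000354, limma). Snhg12 rose by 0.77 ± 0.07, Snhg8 by 0.59 ± 0.06 and Gas5, a TOP RNA, by 0.39 ± 0.07, while Snhg5 fell by 0.62 on the log2 scale. In iTreg minus nTreg 7 rose (77.8%, against 16.4%) and 0 fell (against 12.7%). Fewer rose with any 1 of the nTreg or iTreg arrays left out, where the medians lay between 0.309 and 0.348 against 0.331 with all arrays. In ex-iTreg minus iTreg 4 rose (44.4%, against 15.6%) and 1 fell (11.1%, against 21%). Fewer rose with any 1 of the iTreg or ex-iTreg arrays left out, a share near that of all tested genes, with medians from 0.159 to 0.25.

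RNA polymerase I and its initiation factors transcribe ribosomal RNA. Of 14 of their genes 6 rose in ex-iTreg relative to nTreg arrays (42.9%, against 18.4% of all tested genes) and 0 fell. Fewer rose without nTreg pool 2, ex-iTreg pool 1 or ex-iTreg pool 2, as among all tested genes. The medians were then 0.115, 0.171 and 0.237, against 0.192 with all arrays. Polr1b, the second-largest subunit, rose by 0.50 ± 0.07, Cd3eap by 0.49 ± 0.09, Taf1d by 0.43 ± 0.07 and Polr1e by 0.36 ± 0.08. In iTreg minus nTreg 3 rose and 2 fell (21.4% and 14.3%, near the background of 16.4% and 12.7%). In ex-iTreg minus iTreg 5 rose and 2 fell (35.7% and 14.3%, against 15.6% and 21%). With an array of either compared group left out fewer rose, with medians from 0.092 to 0.192 and from 0.115 to 0.181. Mitochondrial ribosomal proteins, which serve a separate ribosome, rose in 38 of 76 cases in iTreg relative to nTreg arrays (50%, against 16.4% of all tested genes) and in 32 of 76 in ex-iTreg relative to nTreg arrays (42.1%, against 18.4%), and 1 fell in each, Mrpl32 (-0.23 ± 0.06; adjusted p between 0.071 and 0.13 with any array left out) and Mrps6 (-0.36 ± 0.08; 0.0631 and 0.0683 without the ex-iTreg pools in turn). In ex-iTreg minus iTreg 7 rose and 5 fell (9.21% and 6.58%, below the 15.6% and 21% of all tested genes), with a median of 0.005, which turned to -0.001 with arrays centred on their medians, to -0.01 without iTreg pool 1 and to -0.001 without ex-iTreg pool 1. Mrpl23, chosen after its values were seen, rose by 0.66 ± 0.08 in iTreg minus nTreg and differed by 0.09 ± 0.08 in ex-iTreg minus iTreg. Fewer than 38 rose in iTreg minus nTreg with any array left out, as among all tested genes, and the medians then lay between 0.195 and 0.271. The share that rose was then closer to that of all tested genes, and closest without iTreg pool 2. Fewer than 32 rose in ex-iTreg minus nTreg with any array other than nTreg pool 1 left out, again as among all tested genes. The medians then lay between 0.167 and 0.221.

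**Figure D5:**
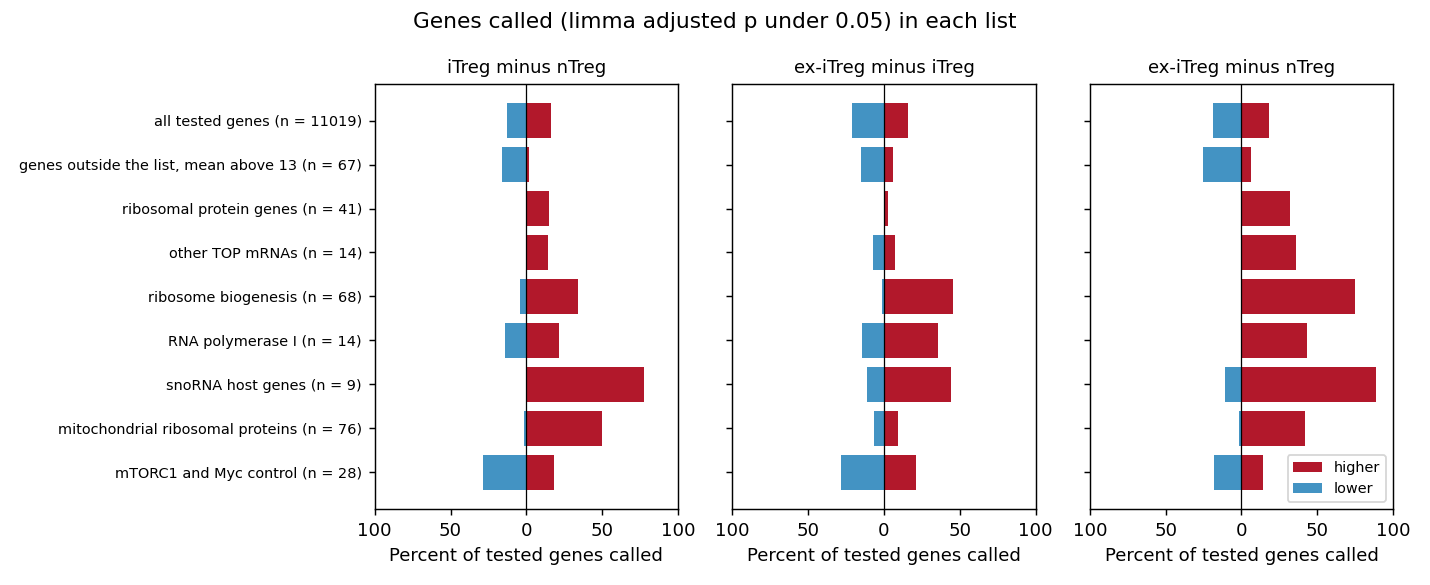
Bars give, for each gene list and comparison, the percent of tested genes called higher (red, to the right) and lower (blue, to the left) by limma at an adjusted p under 0.05. In ex-iTreg minus nTreg the red bars reach 31.7% for ribosomal protein genes, 75% for biogenesis factors and 18.4% for all tested genes.

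Genes that control ribosome production were called in both directions, in ex-iTreg minus nTreg at shares no higher than the background. Of 28 genes of the mTOR and Myc pathways 4 rose and 5 fell in ex-iTreg relative to nTreg arrays (14.3% and 17.9%, against 18.4% and 19% of all tested genes). In iTreg minus nTreg 5 were higher and 8 lower (17.9% and 28.6%, against 16.4% and 12.7%), and in ex-iTreg relative to iTreg arrays 6 rose and 8 fell (21.4% and 28.6%, against 15.6% and 21%). With an array left out these counts ranged from 2 to 3 risen and 4 to 5 fallen, 2 to 5 and 3 to 6, and 2 to 6 and 4 to 8; the fewest risen genes came without nTreg pool 2 or either ex-iTreg pool in ex-iTreg minus nTreg, iTreg pool 2 in iTreg minus nTreg, and iTreg pool 2 or ex-iTreg pool 1 in ex-iTreg minus iTreg. Myc, the factor that drives ribosome biogenesis genes, read 9.34 and 9.08 in nTreg, 9.68 and 9.85 in iTreg, and 9.27 and 9.23 in ex-iTreg arrays. It was highest in iTreg arrays, which exceeded nTreg by 0.56 ± 0.10 (adjusted p = 0.0112, limma), and ex-iTreg and nTreg arrays overlapped. Without iTreg pool 2 its adjusted p was 0.0643, and the fall from iTreg to ex-iTreg (-0.51 ± 0.10) did not pass without iTreg pool 2 (0.0621) or either ex-iTreg pool (0.0526 and 0.064). Its partner Max followed the same order, at 0.96 ± 0.09 in iTreg minus nTreg and -0.90 ± 0.09 in ex-iTreg minus iTreg.

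Of 5 competitors of Myc for Max, Mxi1, Mxd1 and Mxd4 fell from nTreg to ex-iTreg arrays, while Mnt (0.11 ± 0.08) and Mga (-0.05 ± 0.10) were not called. Mxi1 read 10.51 and 10.50 in nTreg, 9.90 and 9.99 in iTreg, and 9.52 and 9.43 in ex-iTreg arrays. These populations did not overlap, and the difference was -1.03 ± 0.07 (adjusted p = 0.00012, limma). Mxd1 differed by -0.77 ± 0.07 and Mxd4 by -0.40 ± 0.07, although Mxd4 was higher in ex-iTreg than in iTreg arrays (0.28 ± 0.07, adjusted p = 0.0291, limma; not past the threshold without either iTreg pool or ex-iTreg pool 1, at 0.0852 to 0.155). Sesn1, an inhibitor of mTOR complex signalling that senses amino acids and stress, fell by 1.58 on the log2 scale (adjusted p = 1.52e-05, limma), while its relative Sesn3 rose by 0.56 ± 0.06. Akt1s1, a component of that complex, rose by 0.41 ± 0.06 in iTreg minus nTreg.

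Signs of other cells and of RNA handling also differed between the populations, and their part in these results was not tested. The 8 T cell markers had a summed linear signal of 33200 to 33900 in nTreg, 33300 to 34800 in iTreg and 30100 to 30400 in ex-iTreg arrays. Macrophage markers, all 11 of those on the array above the filter level, summed to 2810 to 2940 in nTreg, 5830 to 5880 in iTreg and 3610 to 3640 in ex-iTreg arrays. Neutrophil markers (7 of 8 above it, Elane below) summed to 7990 to 8110, 9640 to 10400 and 6550 to 6620, and erythroid markers (4 of 5, Hba-a1 below) to 522 to 523, 718 to 748 and 475 to 542. B cell markers (4 of 9, with Pax5, Cd79a, Blk, Fcrla and Cr2 below) summed to 5180 to 5190, 4830 to 4890 and 2360 to 2450. Ighm, at a mean of 11.82, dominated these sums, with Cd79b next at 6.26. Of the 4 tested, 3 were lower in ex-iTreg than in nTreg arrays (75%, against 19% of all tested genes). Cd22 overlapped, at 6.06 and 6.59 against 5.76 and 6.10. CD8 T and NK cell markers (5 of 7; Ncr1 and Klra8 below) summed to 860 to 907, 660 to 698 and 1780 to 1820; Nkg7, Klrd1 and Eomes were highest in ex-iTreg arrays, while Cd8b1 read 7.18 and 7.03 in nTreg and 5.18 and 5.35 in ex-iTreg arrays, and Cd8a, at 6.07 and 6.22 against 6.20 and 6.09, overlapped. Poly-A controls, spiked into the RNA, averaged 10.86 and 10.96 in nTreg, 12.36 and 12.33 in iTreg, and 9.49 and 9.62 in ex-iTreg arrays. The Gapdh control probe sets at the 3′ end exceeded those at the 5′ end by 0.15 in both nTreg arrays, by 0.38 and 0.51 in iTreg arrays and by 0.00 and -0.04 in ex-iTreg arrays. For Actb these gaps were 0.39 and 0.40, 0.53 and 0.49, and 0.38 and 0.36, so nTreg and ex-iTreg arrays differed little. In these bulk samples fewer cells of a type and less RNA per cell cannot be told apart.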

How the data were processed

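The members and gene lists were chosen with earlier results of these data known. The authors deposited log2 expression per probe set; the submitters' processing notes name RMA, and its software is not given in the sources used here. RMA brings all arrays to a common distribution, so a shift shared by all bright probe sets would be largely removed. Gene names came from the platform annotation: of 45037 non-control probe sets 34945 had 1 symbol, 932 several and 9160 none.

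limma 3.58.1 (R 4.3.3) gave every difference and p-value (lmFit, then eBayes; a mean per group over all 6 arrays, 3 residual and 3.37 prior degrees of freedom), with Benjamini-Hochberg adjustment over 23484 tested probe sets and a threshold of 0.05. With 2 arrays a group, the smallest two-sided p of an exact permutation test is 0.33. The model was tested on simulated data. The number of arrays limits the precision.

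Named members were the 10 largest called differences per direction without overlap, 16 fixed by name (11 of them members here: Rplp0, Rplp2, Rpsa, Rps6, Rps19, Rps4x, Rpl11, Rpl13a, Rpl22, Rpl38 and Rpl39) and up to 4 of each related list by t statistic; the others were named after their values were seen, to account for members or lists. Alternatives were the filter, normalization, probe set choice, variance model, arrays in the fit, replicate block and each array left out. Sequences came from RefSeq tables with Python 3.11.15.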

Additional observations from a re-analysis of the deposited data

How the results depend on the processing

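In the 3 comparisons (iTreg minus nTreg, ex-iTreg minus iTreg, ex-iTreg minus nTreg) 6, 1 and 13 ribosomal protein genes were called, with medians of 0.082, 0.043 and 0.153; the medians stayed above 0 in all 16 alternatives, and the only fall called was Rpl27a with the intensity trend. The trend called 22, 12 and 32 genes higher, where 21.5%, 19.2% and 22.4% of all tested genes rose. It called 1 lower in ex-iTreg minus nTreg, where 22.1% of all tested genes fell. Averaging probe sets gave 11, 2 and 23 (backgrounds of 18.3%, 16.7% and 20.5%), with medians of 0.115, 0.055 and 0.197. Without _x_at and _s_at probe sets the medians were 0.104, 0.067 and 0.208, with 4 of 36 called in ex-iTreg minus iTreg (background 16%). Quantile normalization gave medians of 0.059, 0.031 and 0.087. It gave 3 calls in ex-iTreg minus iTreg (background 17.3%) and 9 in ex-iTreg minus nTreg (background 21.2%). Cyclic loess gave a median of 0.008 with 2 calls there (background 16.3%) and 0.118 in ex-iTreg minus nTreg. Centring arrays gave a median of 0.037 in ex-iTreg minus iTreg. The stricter filter gave 2 calls in ex-iTreg minus iTreg (background 17.2%), and no filter 8 in ex-iTreg minus nTreg (background 8.75%). With 1 array left out, calls ranged from 3 to 6, 1 to 1 and 5 to 10, and medians from 0.071 to 0.1, 0.035 to 0.063 and 0.151 to 0.164. In iTreg minus nTreg and ex-iTreg minus nTreg the fewest calls were a share near that of all tested genes in the same fit. In ex-iTreg minus iTreg the called share was below that of all tested genes in each of these fits. Apart from the fewer arrays or genes tested, the cause was not tested. With the replicate block 6, 1 and 10 genes were called (backgrounds of 13.5%, 13.8% and 16.3%). Same-numbered pools did not deviate together (correlations of pool differences between -0.088 and -0.007). Each correlation rests on 1 pool difference per population, so it cannot decide whether the numbers pair the samples. Whether brightness near the top of the scale limits the differences of 33 members was not tested.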

Other observations

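The array also carries control probe sets for 18S ribosomal RNA, which labelling from poly-A tails does not measure quantitatively and which were left out of all tests. The probe set of its 3′ part read 10.12 and 10.33 in nTreg, 10.24 and 9.29 in iTreg, and 11.16 and 11.09 in ex-iTreg arrays. The middle probe set read 8.82 and 9.05, 9.31 and 8.39, and 9.40 and 9.24, and that of the 5′ part 10.94 and 11.14, 10.64 and 9.73, and 10.95 and 10.93. The iTreg pools stood apart from each other on all 3, and ex-iTreg arrays lay above nTreg arrays on the 3′ and middle probe sets but not on the 5′ one.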
